A study of Mus musculus with 8 samples.

Results

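The 9 genes described here are the core of the Hedgehog signalling pathway as far as the Gli factors, namely the ligand genes Shh, Ihh and Dhh, the receptor genes Ptch1 and Smo, the co-receptor gene Gas1 and the transcription factor genes Gli1, Gli2 and Gli3. They were chosen by name, as 9 of the 26048 protein-coding and long noncoding genes placed on the mm9 genome, and the rule that defines them uses no measured value. For each gene, the ChIP-Seq tags of trimethylated lysine 4 of histone H3 (H3K4me3) within 1 kb of the transcription start site (TSS) were counted in all 4 H3K4me3 libraries and in the input DNA of the same cells.

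Hedgehog ligands are secreted proteins that bind Patched 1, the product of Ptch1. Patched 1 without ligand holds back Smoothened, the product of Smo, and ligand binding releases Smoothened to act at the primary cilium, where the Gli proteins are processed. Gli2 acts mainly as an activator of target genes, Gli3 mainly as a repressor, and Gli1 is itself a target and an amplifier. Gas1, which sits in the cell membrane, helps ligand to reach the receptor. The pathway patterns the neural tube and limbs, and Shh is kept off in the early pancreas. H3K4me3 marks the starts of genes that are active or poised for activity, and menin is a subunit of the MLL1 and MLL2 complexes that can place it.

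Of the 4 groups, 2 were mouse embryonic stem cells (mESCs) and 2 were the pancreatic islet-like endocrine cells (PILECs) grown from them in culture. Wild-type (wt) cells were the TC-1 line and menin-null cells, which lack Men1, were the 3.2N line, both of 129S6/SvEvTac background. Both lines were grown on irradiated fibroblast feeders and freed of them before use, and PILECs came through embryoid bodies and serum-free culture with nicotinamide at the end. Each genotype was 1 cell line, and each group gave 1 H3K4me3 library and 1 input library, so line and genotype cannot be told apart, there are no replicates, and every interval below covers counting error only and compares libraries, not conditions.

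The H3K4me3 libraries held 2432377 tags (wt mESCs), 3517028 (menin-null mESCs), 18773635 (wt PILECs) and 17682677 (menin-null PILECs). Counts are given as tags per 1000000 tags of the library (RPM), with exact Poisson limits at 95%. Ratios between libraries of the same kind, and their medians and differences, are log2 values unless given as fold. Ratios of H3K4me3 to input are not log2 values. Since every window has the same length, RPM can be compared between genes. Men1 exons 3 to 8 (chr19:6336725-6338961) were covered by 17 input tags of wt mESCs and 22 of wt PILECs, and by 0 of either menin-null input, a count that allows up to 3 tags. All 6 genes of an mESC marker list, among them Pou5f1, Nanog and Zfp42, carried H3K4me3 in mESCs, and 3 and 2 did in wt and menin-null PILECs. In PILECs the hormone genes Ins1, Ins2, Gcg and Iapp were not marked and lay between 0.213 and 1.24 RPM, Pdx1 was not marked either, and 7 (wt) and 8 (menin-null) of 14 islet genes were, with sums of 86.1 and 93.5 RPM. In mESCs 6 and 7 of these 14 were already marked, with higher sums of 112 and 139 RPM. The 5 neural genes placed on the genome were all marked in PILECs, with a summed level of 121 RPM in wt and 108 RPM in menin-null PILECs. In mESCs 3 (wt) and 5 (menin-null) of these were already marked, with sums of 67.4 and 85.6 RPM. Fibroblast genes were marked at 6 and 5 of 6 with sums of 78.5 and 68.4 RPM in PILECs. In mESCs they were marked at 3 of 6 in each genotype, with sums of 65.0 and 77.3 RPM. No muscle or liver gene of 4 each was marked, with sums of 1.70 to 4.24 RPM in PILECs. The libraries are of whole cultures, in which more cells with the mark and more mark per cell cannot be told apart. The part of these cell types in the results below was not tested.

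The sequences before the starts of Shh, Gli3 and Gas1 are shown because their intervals between the genotypes in PILECs excluded 0 by RPM. For Gas1 this did not hold in every setting, as given below. Shh differs from Gas1 and Gli3 in CpG content. CpG content is given as the observed over the expected number of CG pairs in the 2 kb around the TSS, which was 0.46 at the median of all genes, 0.65 at those marked in wt mESCs and 0.22 at those not marked. Shh (0.41), Dhh (0.39) and Gli1 (0.50) lay near the median of all genes, and Gas1 (0.89), Gli3 (0.90), Ptch1 (0.81) and Ihh (0.75) lay far above it, with Gli2 (0.67) and Smo (0.66) between. The 250 bases before the most 5' annotated start of Shh (chr5:28793642-28793891, minus strand), Gas1 (chr13:60278727-60278976, minus strand) and Gli3 (chr13:15554818-15555067, plus strand) in mm9 follow in the direction of the gene, with each CG in capitals. They hold 3, 22 and 26 CG pairs. The last sequence is an intron of Shh (chr5:28791142-28791391, minus strand), 2250 to 2499 bp downstream of the start, with 30 CG pairs and an observed over expected value of 0.94, and was taken because no other 250-bp bin between 1 and 5 kb downstream of the Shh start held more H3K4me3 in wt mESCs, menin-null mESCs, wt PILECs or menin-null PILECs.
Shh: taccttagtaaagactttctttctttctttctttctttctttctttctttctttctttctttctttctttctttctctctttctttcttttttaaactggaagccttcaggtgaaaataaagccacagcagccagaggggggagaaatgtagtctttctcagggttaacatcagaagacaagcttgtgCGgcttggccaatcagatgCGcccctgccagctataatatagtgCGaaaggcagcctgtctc
Gas1: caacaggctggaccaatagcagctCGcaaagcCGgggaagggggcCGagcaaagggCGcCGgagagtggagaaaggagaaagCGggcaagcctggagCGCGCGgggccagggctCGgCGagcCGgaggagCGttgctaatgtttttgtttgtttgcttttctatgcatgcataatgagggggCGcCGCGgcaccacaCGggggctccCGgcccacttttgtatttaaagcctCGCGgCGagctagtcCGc
Gli3: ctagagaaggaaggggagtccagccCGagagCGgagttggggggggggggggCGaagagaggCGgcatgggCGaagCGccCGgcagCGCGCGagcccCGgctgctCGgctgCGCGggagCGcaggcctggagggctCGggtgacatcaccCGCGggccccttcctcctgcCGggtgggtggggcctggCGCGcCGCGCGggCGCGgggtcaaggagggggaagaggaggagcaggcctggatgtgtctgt
Shh intron: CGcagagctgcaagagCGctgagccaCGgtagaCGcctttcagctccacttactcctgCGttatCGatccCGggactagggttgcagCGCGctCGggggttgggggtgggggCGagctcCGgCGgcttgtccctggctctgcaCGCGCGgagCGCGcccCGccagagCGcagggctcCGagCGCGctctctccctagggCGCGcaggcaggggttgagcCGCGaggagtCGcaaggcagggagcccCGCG

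All ligand genes had low H3K4me3 at their starts, and the receptors and Gli factors had high levels in most libraries. A gene was called marked where the lower 95% limit of its RPM over input RPM was above 2, which held for 50.5%, 51.5%, 53.9% and 53.2% of all genes in wt mESCs, menin-null mESCs, wt PILECs and menin-null PILECs. Of the 9 Hedgehog genes, 6 were marked in each mESC library, with Shh, Ihh and Dhh unmarked, and 8 in each PILEC library, with Dhh unmarked. Depth differed with stage, and with the PILEC libraries thinned to the depth of the smallest H3K4me3 library and its input 7 were marked in each.

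Shh (chr5:28783355-28793641, minus strand) encodes Sonic hedgehog. Its start held 3.29 RPM in wt mESCs (8 tags), 1.42 RPM in menin-null mESCs (5 tags), 6.92 RPM in wt PILECs (130 tags) and 12.95 RPM in menin-null PILECs (229 tags), against an input of 0.801 to 3.06 RPM. Both mESC libraries were within the counting error of their input, and menin-null PILECs were the highest of the 4. A long noncoding gene on the other strand, 9530036O11Rik, overlaps Shh and has a start 117 bp from that of Shh, and ChIP tags do not tell the 2 genes apart.

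Ihh (chr1:74991891-74998246, minus strand) encodes Indian hedgehog, the ligand of growing cartilage. It held 12.3 RPM in wt mESCs, 8.81 RPM in menin-null mESCs, 2.93 RPM in wt PILECs and 4.41 RPM in menin-null PILECs. Input in its window was 4.002 and 4.27 RPM in mESCs and 0.578 and 0.883 RPM in PILECs, so that H3K4me3 over input was 3.08 and 2.06 in mESCs and 5.06 and 5.00 in PILECs although the RPM was lower there. Dhh (chr15:98723462-98728971, minus strand), which encodes Desert hedgehog, held 7.40, 8.53, 1.86 and 1.53 RPM in the same order, the lowest levels of the 9 genes in PILECs.

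Ptch1 (chr13:63610261-63674474, minus strand) was the highest of the 9 genes in every library at the start counted. It held 67.0 RPM in wt mESCs, 77.1 RPM in menin-null mESCs, 61.4 RPM in wt PILECs and 57.2 RPM in menin-null PILECs. These levels were above those of 95.3% to 97.3% of all genes. The start counted is the one of its 4 starts with the highest summed RPM. Its start at 63665634 held less in mESCs (49.3 RPM in wt, 59.7 RPM in menin-null) and more in PILECs (70.8 and 82.7 RPM). At its most 5' start Ptch1 held 16.9 RPM in wt mESCs, 17.3 RPM in menin-null mESCs, 28.6 RPM in wt PILECs and 34.3 RPM in menin-null PILECs, so its rank depends on the start. Smo (chr6:29685694-29711365, plus strand) held 35.8, 43.8, 34.9 and 31.8 RPM. Gas1 (chr13:60275766-60278726, minus strand), a gene of a single exon, held 42.3, 52.9, 39.8 and 34.3 RPM. In each of these 3 genes the menin-null mESCs had the highest RPM and the menin-null PILECs the lowest, but the genotype intervals of Ptch1 and Smo given below include 0 at both stages, and per 1000000 tags near annotated TSSs Ptch1 was higher in wt mESCs (154.0) than in menin-null mESCs (149.9).

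Gli1 (chr10:126766945-126778645, minus strand) held 25.9 RPM in wt mESCs, 40.7 RPM in menin-null mESCs, 9.48 RPM in wt PILECs and 9.61 RPM in menin-null PILECs, so that both PILEC libraries were below both mESC libraries. Gli2 (chr1:120730709-120950196, minus strand) held 42.3, 57.4, 31.6 and 26.2 RPM, with the same split between the stages. Gli3 (chr13:15555068-15821859, plus strand) held 49.3, 58.6, 43.7 and 25.4 RPM, where menin-null PILECs stood apart below the other 3 libraries. In wt PILECs the order from the top was Ptch1, Gli3, Gas1, Smo, Gli2, Gli1, Shh, Ihh and Dhh. The intervals of the neighbours Gli3 and Gas1, Gas1 and Smo, Smo and Gli2, Gli1 and Shh, and Ihh and Dhh overlapped.

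**Figure D1:**
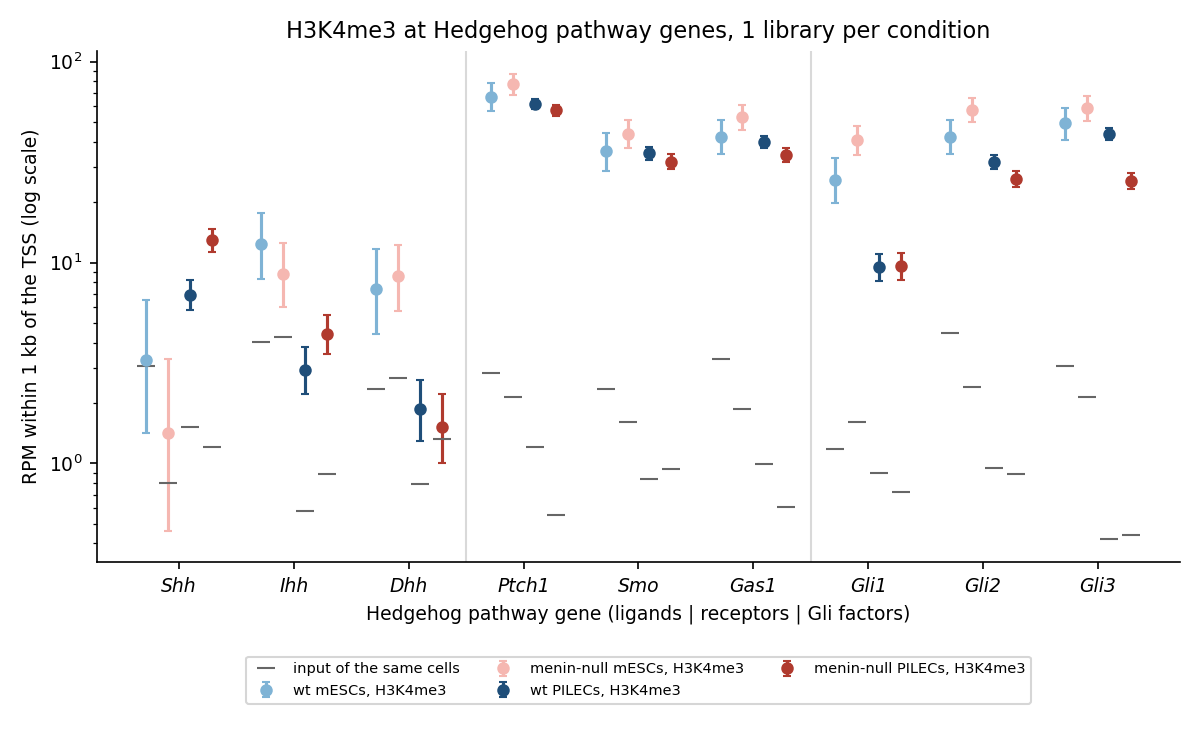
H3K4me3 RPM within 1 kb of the TSS of each Hedgehog gene (log scale) in the 4 libraries, with exact 95% Poisson limits, and the input of the same cells as grey dashes. The ligand genes lie below 13 RPM in every library, Ptch1 at its counted start, though not at its most 5' start, is highest throughout, and Gli3 of menin-null PILECs (25.4 RPM) lies below its other 3 values.

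The comparison of menin-null with wt PILECs asks whether H3K4me3 at Hedgehog genes differed between the libraries of the genotypes, each 1 cell line, in the differentiated cells. Shh and Ihh had more H3K4me3 in menin-null PILECs and Gli3, Gli2 and Gas1 had less, while Ptch1, Smo, Gli1 and Dhh had intervals that included 0. For Shh the ratio was 1.87-fold, a log2 ratio of 0.90 (95% interval 0.59 to 1.23), and 95.7% of the genes tested had a lower ratio. For Ihh it was 1.51-fold (log2 ratio 0.59, interval 0.07 to 1.12). This call was not kept with the input subtracted (0.59, interval -0.09 to 1.26) or in a window of 500 bp on each side (0.48, interval -0.19 to 1.16).

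Gli3 showed the strongest decrease, from 820 tags to 450, or 1.72-fold lower in menin-null PILECs (log2 ratio -0.78, interval -0.95 to -0.61), and 95.2% of genes had a higher ratio. Gli2 was 1.21-fold lower (log2 ratio -0.27, interval -0.45 to -0.10). Gas1 was 1.16-fold lower (log2 ratio -0.22, interval -0.37 to -0.06). The input within 50 kb of Gas1 was lower in menin-null PILECs by the same amount (log2 ratio -0.22, interval -0.36 to -0.08). Divided by the input ratio, the Gas1 log2 ratio was 0.0022 (interval -0.21 to 0.21, with the counting error of both). Within 200 kb the input ratio of Gas1 was -0.06 (interval -0.13 to 0.0036) and that of Gli3 was -0.08 (interval -0.15 to -0.01). Scaled by the tags within 1 kb of any annotated TSS the Gas1 ratio was -0.13 (interval -0.28 to 0.03), which left 2 Hedgehog genes above and 2 below 0, and in a window of 500 bp it was -0.09 (interval -0.30 to 0.12). For the other 8 genes the input ratio within 50 kb included 0 in PILECs. The part of the input in the Gas1 result was not tested further.

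Ptch1 had a log2 ratio of -0.10 (interval -0.23 to 0.02), Smo of -0.13 (interval -0.30 to 0.03), Gli1 of 0.02 (interval -0.29 to 0.33) and Dhh of -0.29 (interval -1.07 to 0.48). These intervals allow a decrease of Dhh by more than 2-fold, but for Ptch1 no decrease below -0.23. Of all 23886 genes with at least 10 tags in the pair, 5.09% had an interval above 0 and 20.2% an interval below 0, beside 2 and 3 of the 9 Hedgehog genes. No Hedgehog gene was called at 2-fold with 1 tag added to each count, where 1.29% of all genes were called higher and 1.31% lower. The median log2 ratio of the Hedgehog genes was -0.13 and that of all genes -0.06.

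**Figure D2:**
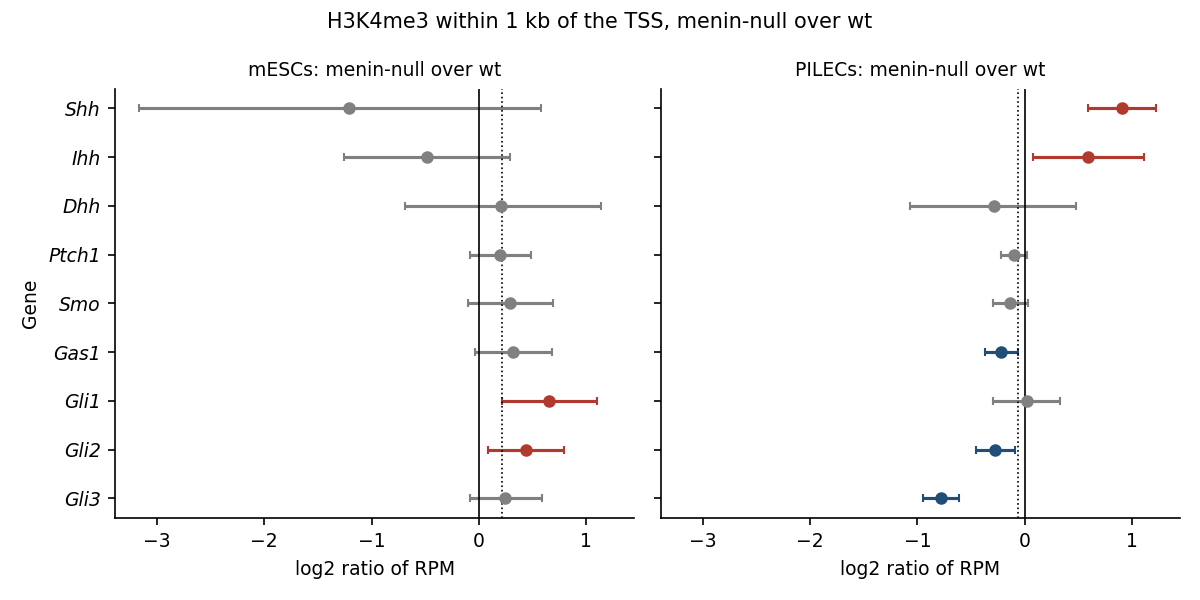
Log2 ratio of H3K4me3 RPM within 1 kb of the TSS, menin-null over wt, in mESCs (left) and PILECs (right), with exact 95% intervals for counting error, red above 0, blue below 0, grey including 0. The dotted line is the median of all genes tested. Shh (0.90) and Gli3 (-0.78) lie farthest from 0 in PILECs on opposite sides.

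The same comparison in mESCs, before differentiation, gave higher H3K4me3 within 1 kb of the start at Gli1 and Gli2 in menin-null cells. No Hedgehog gene was lower in that window. Gli1 was 1.57-fold higher (log2 ratio 0.65, interval 0.21 to 1.10) and Gli2 1.36-fold higher (0.44, interval 0.09 to 0.80). From 1 to 5 kb downstream of the start, Gli1 was instead lower in menin-null mESCs (-0.46, interval -0.92 to -0.0089), while Gli2 was higher (0.61, interval 0.0016 to 1.25). Among all 16102 genes tested, 24.3% had an interval above 0 and 2.02% below 0, so that 2 of 9 above 0 was close to the share of all genes. The median of all genes was 0.21, and scaling by tags near any annotated TSS lowered every ratio by 0.24. With that scaling neither gene was called (Gli1 0.41, interval -0.03 to 0.86, and Gli2 0.20, interval -0.15 to 0.56), and Gli1 lost the call in a window of 2 kb on each side (0.16, interval -0.18 to 0.50).

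Gli3 had a log2 ratio of 0.25 (interval -0.08 to 0.58), Gas1 of 0.32 (interval -0.03 to 0.68), Smo of 0.29 (interval -0.10 to 0.69) and Ptch1 of 0.20 (interval -0.08 to 0.49). Gas1 was above 0 in the window of 2 kb (0.42, interval 0.12 to 0.73) and with input subtracted (0.39, interval 0.0074 to 0.76), and Gli3 at its most 5' start (0.48, interval 0.10 to 0.86). Shh (-1.21, interval -3.17 to 0.58), Ihh (-0.48, interval -1.26 to 0.29) and Dhh (0.20, interval -0.69 to 1.13) rested on 5 to 31 tags a library. At this depth a 2-fold difference at Shh was not detectable. None of the 9 was called at 2-fold, as were 0.783% of all genes higher and 0.826% lower. Input within 50 kb was lower in menin-null mESCs at Gli2 (log2 ratio -0.44, interval -0.66 to -0.23), Shh (-0.38, interval -0.72 to -0.04) and Gas1 (-0.33, interval -0.63 to -0.04). Divided by the input ratio, with the counting error of both, the H3K4me3 log2 ratio was 0.88 (interval 0.47 to 1.30) for Gli2, 0.65 (interval 0.19 to 1.12) for Gas1 and -0.83 (interval -2.83 to 0.998) for Shh.

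Differentiation of wt mESCs into PILECs went with lower H3K4me3 RPM at Ihh, Dhh, Gli1 and Gli2 and with higher RPM at Shh. Ihh was 4.21-fold lower in PILECs (log2 ratio -2.07, interval -2.74 to -1.38), Dhh 3.97-fold lower (-1.99, interval -2.85 to -1.08) and Gli1 2.73-fold lower (-1.45, interval -1.87 to -1.01). Gli2 was 1.34-fold lower (-0.42, interval -0.72 to -0.10), a call that was not kept with input subtracted (-0.30, interval -0.65 to 0.04), in the window of 500 bp (-0.38, interval -0.81 to 0.08) or at the most 5' start (-0.33, interval -0.65 to 0.01). Shh was 2.11-fold higher (1.07, interval 0.05 to 2.32) on 8 tags in wt mESCs, and the call was not kept with input subtracted (4.56, interval -13.2 to 22.3), where the mESC level is near 0, or in the window of 500 bp (1.27, interval -0.01 to 2.93). Ihh, Dhh and Gli1 kept their direction and calls with input subtracted (-1.83, -2.23 and -1.53). As H3K4me3 over input, however, Ihh was 3.08 in wt mESCs and 5.06 in wt PILECs, and Gli2 9.47 and 33.4, both higher in PILECs. Dhh (3.14 and 2.36) and Gli1 (22.0 and 10.6) were lower in PILECs over input too. The intervals of these values overlapped between the stages for Ihh, Dhh and Gli1.

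Ptch1 (-0.13), Smo (-0.03), Gas1 (-0.09) and Gli3 (-0.18) had intervals that included 0 between the wt stages, and their limits within 1 kb of the counted start lay between -0.45 and 0.31. Elsewhere 3 of them were called. Ptch1 was lower with 1 tag per position (-0.31, interval -0.57 to -0.05) and in the window of 500 bp (-0.31, interval -0.60 to -0.0056). At its most 5' start (0.76, interval 0.30 to 1.26) and its start at 63665634 (0.52, interval 0.25 to 0.80) Ptch1 was higher. Gli3 was lower at its most 5' start (-0.40, interval -0.73 to -0.05) and at its other starts that were not counted (-0.40, interval -0.73 to -0.06, and -0.30, interval -0.58 to -0.01). Gas1 was higher in the window of 2 kb (0.47, interval 0.21 to 0.73). As H3K4me3 over input, Gli3 (16.1 in wt mESCs and 104 in wt PILECs) and Gas1 (12.8 and 39.9) were higher in PILECs, with intervals that did not overlap. Ptch1 (23.7 and 50.8) and Smo (15.2 and 41.5) were also higher in wt PILECs over input, with intervals that overlapped. Over all 21132 genes tested, 18.8% were above 0 and 24.6% below 0, beside 1 and 4 Hedgehog genes. At 2-fold, 5.05% of genes were called higher and 12.9% lower, against 0 and 3 Hedgehog genes (Ihh, Dhh and Gli1). Depth and stage cannot be told apart here, since both mESC libraries were shallow and both PILEC libraries deep, and the input near TSSs also differed with stage, at 7.50% and 6.97% of input tags in mESCs and 4.65% and 4.78% in PILECs.

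In menin-null cells the stage comparison gave 1 Hedgehog gene above 0 and 8 below 0, where 12.2% and 39.2% of 21507 genes tested were. Shh was higher in PILECs (log2 ratio 3.19, interval 1.94 to 4.82) on 5 tags in mESCs against 229. Dhh (-2.48), Gli1 (-2.08), Gli3 (-1.20), Gli2 (-1.13) and Ihh (-0.999) were the 5 genes called lower at 2-fold with 1 tag added, as were 18.4% of all genes, and Shh was the 1 called higher, as were 3.98%. Gas1 (-0.63), Smo (-0.46) and Ptch1 (-0.43) were lower by less. In the window of 2 kb these 3 lost the call (-0.18, -0.25 and -0.02), and at its most 5' start Ptch1 was higher in PILECs (0.98, interval 0.60 to 1.39). With input subtracted Ihh (-0.36, interval -1.63 to 0.90) and Dhh (-4.85, interval -10.5 to 0.79) lost their calls in menin-null cells. As H3K4me3 over input, Ptch1 (36.1 in mESCs and 104 in PILECs), Gli3 (27.4 and 57.6) and Gas1 (28.3 and 56.5) were higher in PILECs. So were Gli2 (23.9 and 29.7), Smo (27.3 and 33.9) and Ihh (2.06 and 5.00). Dhh (3.19 and 1.15) and Gli1 (25.4 and 13.4) were lower in PILECs over input too. For each of these 8 genes the intervals of the values over input overlapped between the stages. The median of all genes was -0.33, and scaling by tags near any annotated TSS raised every ratio by 0.36, which left 5 Hedgehog genes below 0 and took Smo (-0.10), Ptch1 (-0.07) and Ihh (-0.64, interval -1.26 to 0.01) out of the call.

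**Figure D3:**
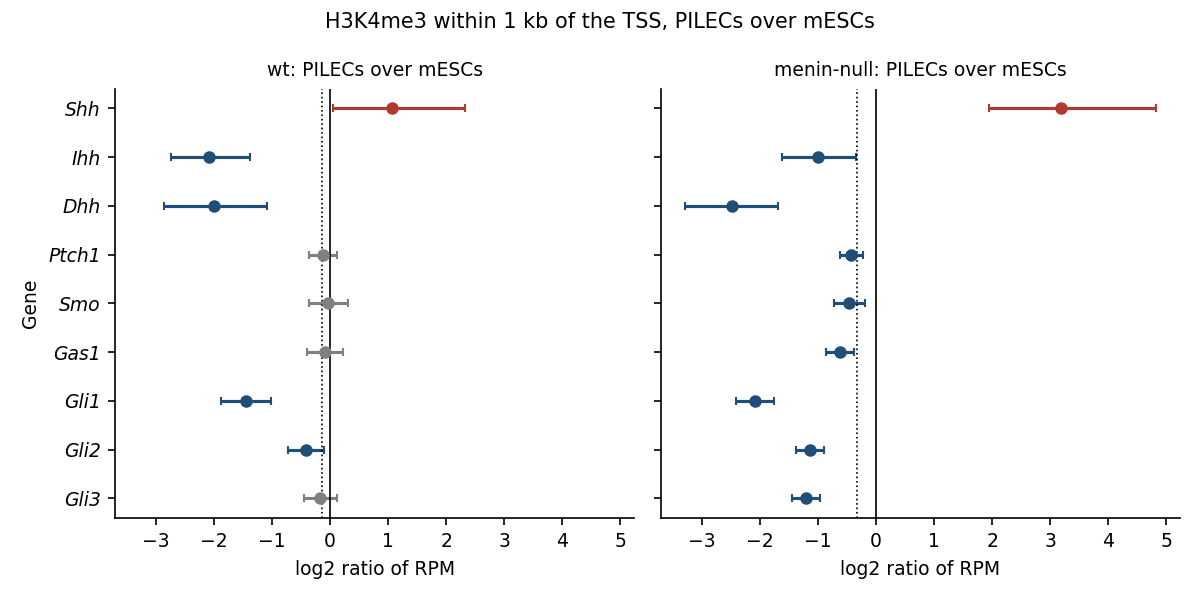
Log2 ratio of H3K4me3 RPM within 1 kb of the TSS, PILECs over mESCs, in wt (left) and menin-null cells (right), with exact 95% intervals for counting error, red above 0, blue below 0, grey including 0. The dotted line is the median of all genes tested. Shh is the only Hedgehog gene above 0 in either genotype, and Ihh, Dhh, Gli1 and Gli2 are below 0 in both, where with input subtracted Shh and Gli2 in wt and Ihh and Dhh in menin-null cells include 0. As H3K4me3 over input, Ihh and Gli2, but not Dhh and Gli1, were higher in PILECs in both genotypes.

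The shape of the mark around the starts differed among the genes. Stretches of enriched windows were called on both genotypes of a stage summed, so the ratios over them are descriptions and are given without intervals, and the comparisons rest on fixed windows. At Shh the H3K4me3 of mESCs lay not at the start but in an intron and near the end of the gene. The intron printed above held 2.47 RPM in wt mESCs, 5.40 RPM in menin-null mESCs, 2.93 RPM in wt PILECs and 5.32 RPM in menin-null PILECs, so that menin-null was about as high in mESCs as in PILECs. A stretch of 1200 bp in mESCs (chr5:28790801-28792000), all of it intronic, held 16 tags in wt and 55 in menin-null cells. Between 1 and 5 kb downstream of the Shh start, menin-null mESCs held 17.6 RPM and wt mESCs 9.04 RPM (log2 ratio 0.96, interval 0.24 to 1.74). In PILECs the values there were 30.3 RPM in menin-null and 15.1 RPM in wt (log2 ratio 1.01, interval 0.79 to 1.22). The menin-null libraries thus held more H3K4me3 RPM over this stretch of Shh at both stages. At the start itself the interval excluded 0 in PILECs and included it in mESCs. The mESC ratio over the downstream stretch rests on 62 menin-null and 22 wt tags. Scaling by tags near annotated TSSs lowers every mESC genotype ratio by 0.24, which is close to the lower limit of this one. A stretch near the end of the gene in mESCs (chr5:28784401-28786200), which also holds the 5' end of 9530036O11Rik on the other strand and cannot be assigned to either gene, held 14.4 RPM in wt and 15.6 RPM in menin-null cells (log2 ratio 0.12). In PILECs a single stretch of 5000 bp (chr5:28788801-28793800) joined the start and the intron and held 400 tags in wt and 752 in menin-null cells (log2 ratio 1.00). This stretch also covers the noncoding gene Gm17493 and part of 9530036O11Rik. Upstream of Shh, between 1 and 5 kb, both PILEC libraries held 31 tags.

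Gli3 in PILECs carried a stretch of 3800 bp (chr13:15554401-15558200), 563 bp of it exonic and 3133 bp of it inside the gene. It reached 2387 bp past the counted start, and its log2 ratio of menin-null over wt was -0.88. From 1 to 5 kb downstream, Gli3 held 0.411 RPM in wt mESCs (1 tag), 1.14 RPM in menin-null mESCs (4 tags), 12.1 RPM in wt PILECs and 4.13 RPM in menin-null PILECs. The mark downstream of Gli3 was higher in PILECs than in mESCs in wt (log2 ratio 4.88, interval 2.39 to 10.2, on 1 tag in mESCs) and menin-null cells (1.86, interval 0.44 to 3.77). The ratio of menin-null over wt was lower there (-1.55, interval -1.95 to -1.16) than within 1 kb of the start (-0.78, interval -0.95 to -0.61), with intervals that did not overlap. Upstream of Gli3 the ratio was -0.66 (interval -1.14 to -0.19).

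Gas1 showed a like extension in PILECs, with 14.4 RPM from 1 to 5 kb downstream in wt mESCs, 21.9 RPM in menin-null mESCs, 44.5 RPM in wt PILECs and 33.6 RPM in menin-null PILECs. By RPM this stretch was higher in PILECs in wt cells (log2 ratio 1.63, interval 1.14 to 2.16) although the start itself was not (-0.09, interval -0.39 to 0.22). Menin-null PILECs were lower than wt there (-0.40, interval -0.56 to -0.25), and so was their input, at 1.82 RPM against 2.79 RPM, whose part in the difference was not tested. Since Gas1 is 2961 bp long, part of this stretch lies past its end.

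Gli2 had a second stretch in PILECs, all of it intronic (chr1:120944201-120945600), 4316 to 5715 bp from the counted start, with 140 tags in wt and 62 in menin-null PILECs (log2 ratio -1.09). From 1 to 5 kb downstream of its start Gli2 held 14.8 RPM in wt and 9.78 RPM in menin-null PILECs (log2 ratio -0.60, interval -0.88 to -0.32). In mESCs the same 1 to 5 kb held 13.6 RPM in wt and 20.8 RPM in menin-null cells (log2 ratio 0.61, interval 0.0016 to 1.25). A stretch in mESCs from the same position as the intronic one, of 1200 bp, held 49 (wt) and 62 (menin-null) tags (-0.19). Dhh, unmarked at its start, had a stretch of 1000 bp in PILECs near the end of the gene (chr15:98724201-98725200). Of it 791 bp were exonic, its CpG value was 0.85, and wt and menin-null PILECs held 100 and 110 tags (log2 ratio 0.22). No such stretch was called in mESCs, but from 1 to 5 kb downstream of the Dhh start the RPM was higher in mESCs. Wt mESCs held 13.98 RPM there and wt PILECs 7.297 RPM (PILECs over mESCs -0.94, interval -1.49 to -0.35). Menin-null mESCs held 17.1 RPM and menin-null PILECs 7.92 RPM (-1.11, interval -1.55 to -0.65). Input there was also higher in mESCs, and its part was not tested. Gli1 had 1 stretch around its start at each stage, of 3400 bp in mESCs and 3200 bp in PILECs, with a PILEC log2 ratio of 0.013. Lengths of stretches depend on depth and were not compared between stages.

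Ptch1 has 4 annotated starts, and its ratio depended on which was counted. The start counted (63666828) had a PILEC ratio of -0.10, but the start at 63665634, 1 of 3 others, held 70.8 RPM in wt and 82.7 RPM in menin-null PILECs (log2 ratio 0.22, interval 0.11 to 0.33), and the most 5' start (63674474) held 28.6 and 34.3 RPM (0.26, interval 0.09 to 0.43). Over the whole stretch of 7000 bp around the counted start the log2 ratio was 0.025. Within 500 bp of the counted start the ratio was -0.23 (interval -0.40 to -0.07). Within Ptch1 the mark of menin-null PILECs was thus lower close to the counted start and higher at 2 of the others, while the last start held at most 1.14 RPM in any library. The windows of the starts at 63666828 and 63665634 overlap. By RPM the most 5' start was higher in PILECs than in mESCs in wt cells (log2 ratio 0.76, interval 0.30 to 1.26), and the counted start was not (-0.13, interval -0.36 to 0.12). At the other starts of Ihh, Gas1, Gli1, Gli2 and Gli3 the PILEC ratio had the same sign as at the counted start or an interval that included 0.

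**Figure D4:**
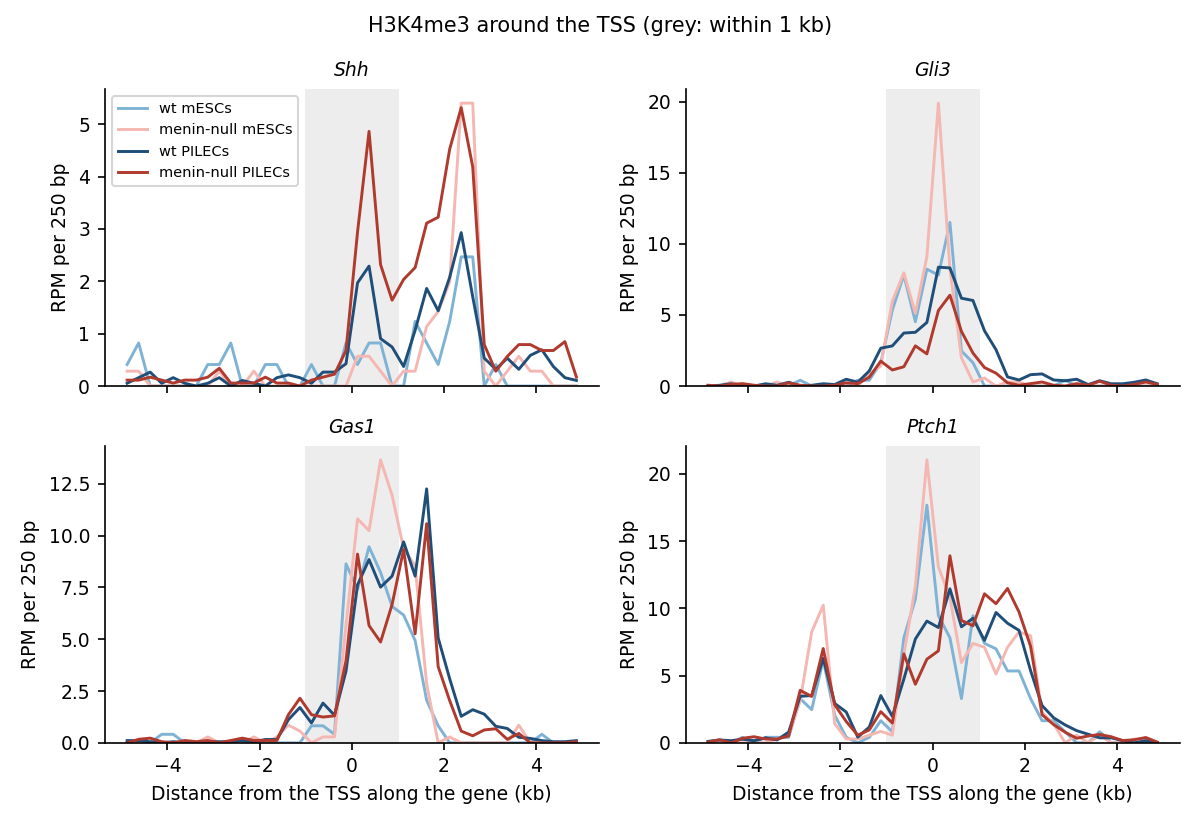
H3K4me3 RPM in 250-bp bins against the distance from the TSS along the gene (kb) for Shh, Gli3, Gas1 and Ptch1 in the 4 libraries, with the counted window of 1 kb on each side in grey. Shh shows a second peak near 2.4 kb in all 4 libraries, at 5.40 RPM in menin-null mESCs, and Gli3 and Gas1 extend farther downstream in PILECs than in mESCs.

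Ptch1 was also the only Hedgehog gene with the Gli binding motif GACCACCCA on either strand within 1 kb of its counted start, a motif found in that window at 453 of 26048 genes (1.74%). Ptch1 is a textbook target of Gli factors. The match starts at -923 bp from the counted start, in an intron of the longest transcript (chr13:63667743-63667751, minus strand). It is shown with 10 bases on each side in the direction of the gene and the motif, which reads TGGGTGGTC on this strand, in capitals.
Ptch1 motif: gttgcctaccTGGGTGGTCtctctacttt
The match is one of letters only, and says nothing about binding in these cells.

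The genotype log2 ratio in PILECs minus that in mESCs asks whether the difference between genotypes changed with differentiation. It was above 0 for Shh (2.11, interval 0.28 to 4.10) and Ihh (1.08, interval 0.13 to 2.02) and below 0 for Gli3 (-1.03, interval -1.40 to -0.65), Gli2 (-0.71, interval -1.11 to -0.32), Gli1 (-0.63, interval -1.18 to -0.09), Gas1 (-0.54, interval -0.93 to -0.15) and Smo (-0.43, interval -0.86 to -0.00091). For Ptch1 (-0.30, interval -0.62 to 0.01) and Dhh (-0.49, interval -1.71 to 0.72) it included 0, although for Ptch1 it was below 0 in the window of 500 bp (-0.54, interval -0.93 to -0.16). These are 2 genes above and 5 below 0, where 1.47% and 31.4% of the 16087 genes tested were. The median of those genes was -0.31, which the values of Ptch1 and Smo lay close to. Scaled by tags near annotated TSSs, Shh, Ihh and Gli3 kept their calls. For Shh the value rests on 5 and 8 tags in mESCs, and from 1 to 5 kb downstream the 2 stages had nearly the same ratio, as given above.

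A list of 43 other genes of the pathway was counted in the same way, of which 42 were placed on the genome and 34, 36, 36 and 37 were marked in wt mESCs, menin-null mESCs, wt PILECs and menin-null PILECs. In PILECs 17 of 42 were lower and 6 higher in menin-null cells (40.5% and 14.3%, beside 20.2% and 5.09% of all genes), with a median of -0.16 against -0.06. Of the 23886 genes behind these shares only 14171 were marked in either library, with a median of -0.09. Genes with fewer tags have wider intervals, and the part of tag counts in the shares given here and below was not tested. All 6 that were higher were among the 12 target genes of the pathway, of which 2 were lower. Scaled by tags near annotated TSSs, Gsk3b, Btrc and Arl13b, which are no targets, were also above 0, with 9 higher and 11 lower in all. Nkx2-1 (log2 ratio 1.00, interval 0.14 to 1.92), Foxa2 (0.81, interval 0.43 to 1.19) and Nkx2-2 (0.52, interval 0.10 to 0.95), transcription factor genes of ventral cells such as those of the ventral neural tube, had the highest ratios of the 42. Foxa2 held 5.01 RPM in wt and 8.77 RPM in menin-null PILECs, and Nkx2-1 held 0.959 and 1.92 RPM, near the level of input. Nkx2-2 and Foxa2 are also genes of the pancreas. With Shh these genes were higher in menin-null PILECs, while the target genes Bcl2 (-0.45) and Foxf2 (-0.42) were lower.

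Lower H3K4me3 in menin-null PILECs was found at 3 of 5 genes of ligand release, 2 of 6 other receptors and antagonists, 4 of 12 cytoplasmic regulators and 6 of 7 genes of the primary cilium, and no gene of these 4 lists was higher by total tags, beside 20.2% lower and 5.09% higher among all genes tested. Scaled by tags near annotated TSSs, 4 of the 6 cilium genes and 2 of the 4 cytoplasmic regulators lost the call, and 1 and 2 genes of these lists were higher. The lowest ratios of the 42 were those of Bmp4 (-0.91, interval -1.91 to 0.03, and -1.01, interval -2.04 to -0.05, with 1 tag per position), which encodes a signalling protein, Hhat (-0.70, interval -1.25 to -0.16), whose product attaches palmitate to Hedgehog ligands, and Scube3 (-0.55, interval -0.81 to -0.30), whose product is a secreted protein of the ligand release group. Bmp4 was not marked in either PILEC library. It held 1.60 RPM in wt and 0.848 RPM in menin-null PILECs, near their input of 0.999 and 0.828 RPM. Ratios at the 6 cilium genes that were lower, such as Rab23 (-0.41) and Kif3a (-0.22), were small, between -0.41 and -0.19.

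**Figure D5:**
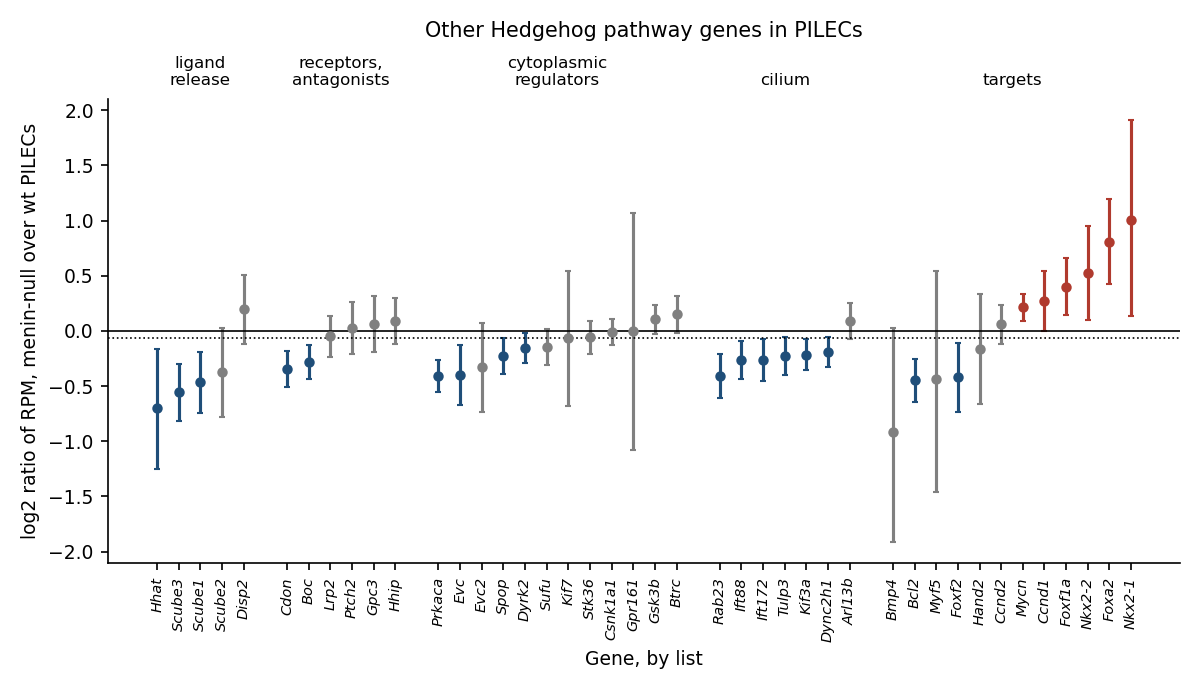
Log2 ratio of H3K4me3 RPM within 1 kb of the TSS, menin-null over wt PILECs, for the 42 other pathway genes by list, with exact 95% intervals for counting error, red above 0, blue below 0, grey including 0. The dotted line is the median of all genes tested (-0.06). The 6 genes above 0 are all targets, led by Nkx2-1 (1.00), and 6 of 7 cilium genes are below 0, whereas scaled by tags near annotated TSSs 3 genes that are no targets are above 0 and 2 cilium genes below.

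In mESCs 9 of 40 other pathway genes with enough tags were higher in menin-null cells and 0 lower (22.5% and 0%, beside 24.3% and 2.02% of all genes), so that the share higher was near that of all genes. Between wt stages 10 of 42 were higher and 17 lower in PILECs (23.8% and 40.5%, beside 18.8% and 24.6% of all genes). The lowest ratios were those of Nkx2-1 (-2.48, interval -3.59 to -1.33), Bmp4 (-2.29, interval -3.17 to -1.38) and Ccnd1 (-1.77, interval -2.12 to -1.40), which encodes cyclin D1. The highest were Disp2 (1.84, interval 0.69 to 3.31), Boc (1.23, interval 0.80 to 1.70), a co-receptor like Gas1, and Gpr161 (1.14, interval -1.53 to 6.52), a ciliary receptor with 1 tag in wt mESCs. Nkx2-1 and Bmp4 were not marked in either wt library. Nkx2-1 held 5.34 RPM in wt mESCs (13 tags) and 0.959 RPM in wt PILECs, and Bmp4 held 7.81 RPM (19 tags) and 1.60 RPM. Among the 12 targets 8 were lower and 2 higher in wt PILECs (66.7% and 16.7%, beside the same 24.6% and 18.8%). Between menin-null stages 7 of the 42 were higher and 22 lower in PILECs (16.7% and 52.4%, beside 12.2% and 39.2% of all genes).

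The genes with the H3K4me3 pattern most like that of Gas1, by Euclidean distance of log2(RPM + 0.5) over the 4 libraries, were Uvrag (0.0816), Hivep1 (0.0843) and Limd2 (0.0849). Those most like Shh were Syt4 (0.606), Nsg2 (0.637) and Hes7 (0.724). Syt4 held 3.70, 1.42, 9.96 and 10.3 RPM, and the distances of the Shh neighbours were larger by far than those of the Gas1 neighbours. These are descriptions over 4 libraries that share the libraries' depth.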

How the data were processed

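The 8 libraries used were 1 of H3K4me3 and 1 of input for each genotype at each stage. The authors sequenced 36-bp reads, aligned them to mm9 (the build in the submitters' processing notes, with the aligner not given in the sources used here), kept unique tags with up to 2 mismatches, and deposited 1 line per tag with its position. Between 1.04% and 1.81% of tags nevertheless carried more than 2 mismatches and were kept. Each deposited line also holds a score from 4 to 119, which was not used. Repeated tags at a position and strand (4.17% to 11.5% of H3K4me3 tags) were kept.

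Tags were moved 125 bp to the middle of a 250-bp fragment and counted within 1 kb of each annotated start (GENCODE vM1 on NCBIM37, the mm9 assembly). For a gene with several starts, the start with the highest summed RPM was used. Python 3.11.15, numpy 2.4.6, pandas 2.3.3, scipy 1.17.1 and matplotlib 3.10.9 were used. Ratios of RPM have exact conditional binomial intervals at 95%, and differences of ratios have conditional intervals of the odds ratio. A difference was called where the interval excluded 0, over genes with at least 10 tags in the pair. Enriched stretches were runs of 200-bp windows past a Poisson p of 1e-05 in the summed genotypes of a stage, at least 1000 bp long, with gaps of up to 400 bp and at least 2 times the input. Scripts were tested on simulated data. The genes and lists were chosen with earlier results of these data known. Other pathway genes were named by a fixed rule, the 3 lowest and 3 highest ratios of the PILEC genotype comparison and of the wt stage comparison, and the 3 genes nearest to Gas1 and to Shh. Bcl2, Foxf2, Rab23, Kif3a, Gsk3b, Btrc, Arl13b and 9530036O11Rik were named after their values were seen. Disp1 and Sox1, listed, were not placed on the genome by symbol. Expression arrays were not analysed here.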

Additional observations from a re-analysis of the deposited data

Results flagged for a closer look

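For 7 of the 9 Hedgehog genes the genotype log2 ratio differed between the stages, by the interval of the difference itself (PILECs minus mESCs, counting error only). The difference was 2.11 for Shh, 1.08 for Ihh, -0.43 for Smo, -0.54 for Gas1, -0.63 for Gli1, -0.71 for Gli2 and -1.03 for Gli3, beside a median of -0.31 over the 16087 genes tested, of which 1.47% were above and 31.4% below 0. Shh, Ihh and Gli3 kept the call when libraries were scaled by tags near annotated TSSs, and Smo, Gas1, Gli1 and Gli2 did not. Gli3 was the only one of the 7 that kept it under all 7 alternatives. Shh lost it with 1 tag per position (1.70), in the window of 500 bp (1.67) and with input subtracted.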

How the results depend on the processing

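The ratios of the 9 genes within 1 kb of their counted starts, the differences of these ratios and the levels were recomputed under 7 alternatives chosen with the design and, for the genotype ratios, 1 chosen after seeing the data, the division by the input ratio within 50 kb. Other pathway genes were recomputed under 3, and flanks, other starts, stretches, markers and nearest genes under none. In PILECs the calls of Shh, Gli2 and Gli3 held under all 8. Scaling by tags near annotated TSSs moved most counts. In mESCs the Hedgehog genes higher in menin-null cells went from 2 to 0, and the other pathway genes from 9 higher and 0 lower to 4 and 1. Those lower in menin-null PILECs went from 17 to 11. Between menin-null stages, where 22 of 42 were lower in PILECs by total tags, those higher in PILECs went from 7 to 14. Hedgehog genes below 0 between menin-null stages went from 8 to 5 (also 5 with 2 kb), and below 0 in the difference of ratios from 5 to 1 (3 with 5' ends, 2 kb or 500 bp). Marked genes went from 6 to 1 in mESCs and from 8 to 5 in PILECs, since by construction this scaling raises the input. Divided by the input ratio, 3 genes were above 0 in mESCs. With 500 bp or input subtracted, 1 was above 0 in PILECs and 0 between wt stages and in the difference of ratios, which had 1 with 1 tag per position. Between stages, 2 were above 0 with 2 kb (wt) and with the most 5' start (wt and menin-null). With input within 200 kb, 1 gene was above and 1 below 0 in mESCs, instead of 0 and 3.

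The direction turned for the following values. In mESCs these were Shh (1.44 with input subtracted, interval -16.7 to 19.6), Dhh (-0.16 with 500 bp, -0.035 by TSS tags), Ptch1 (-0.038 by TSS tags) and Smo (-0.043 with 500 bp). In PILECs they were Ptch1 (0.028 with 2 kb, 0.26 with the most 5' start), Gas1 (0.0022 over input), Gli1 (-0.037 with 1 tag per position, -0.0399 with the most 5' start, -0.036 over input) and, of 5 other pathway genes that turned by TSS tags, Gpr161 (0.091), named by the rule. Between wt stages they were Ptch1 (0.13 with 2 kb, 0.76 with the most 5' start), Smo (0.10 with 2 kb, 0.029 with input subtracted), Gas1 (0.47 with 2 kb) and Gli3 (0.10 with 2 kb), and between menin-null stages Ptch1 (0.98 with the most 5' start). In the difference of ratios they were Shh (-0.32 with input subtracted, interval -18.5 to 17.8) and Ptch1 (0.028 by TSS tags, 0.22 with the most 5' start). The cause of these moves was not tested. No paired analysis was possible because each group has 1 library and the labels number no replicates. Depth limits the mESC values of Shh, Ihh and Dhh.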
